A study of Mus musculus with 27 samples.

Results

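The collagen genes of mouse embryonic fibroblasts (MEFs) were taken as every row of the gene count table whose symbol is Col, a number, the letter a and a number. This gave 43 of the 37310 genes in the table. They were grouped by the kind of structure their proteins build, into 11 fibrillar genes, 6 basement membrane genes, 6 genes of beaded filaments, 9 FACIT genes (fibril-associated collagens with interrupted triple helices) and 11 others. The study asked what deletion of the *Firre* locus, which gives rise to a long noncoding RNA on the X chromosome, does in MEFs. RNA-seq libraries were available for 4 groups of 3 replicates, namely female wild type, female *Firre* KO, male wild type and male *Firre* KO. The KO mice lack the whole locus, which was removed between inserted loxP sites. MEFs were grown from trunks of mid-gestation embryos, from which head, limbs and inner organs had been removed, and were used at low passage. The labels do not say whether the 3 replicates of a group came from separate embryos or cultures, so that p-values measure the spread between these libraries, which may be technical. A sex could not be told apart from the embryo or line it came from.

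Collagens are secreted proteins in which chains wind around each other as a triple helix. In the helical part of each chain, glycine, whose codons begin with GG, opens each triplet of residues, since no larger residue has room inside the helix. Fibrillar collagens align into the fibrils that give skin, bone and tendon their strength, FACIT collagens sit on the surface of these fibrils, type IV collagens form the sheet-like network of basement membranes, and type VI collagens form beaded filaments around cells. Fibroblasts are the main source of fibrillar collagen in connective tissue, whereas cartilage cells make a set of their own, led by *Col2a1*, *Col9a1* and *Col11a2*.

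All 43 genes carried this repeat in their coding sequence. In the longest coding transcript of each gene, a run of at least 20 in-frame triplets of a GGN codon followed by any other codons was found in 43 of 43 collagen genes and in 63 of 21624 protein-coding genes of the annotation, or 0.2913%. The longest run was longer in every fibrillar gene than in any gene of the other classes, which overlapped. It spanned 216 to 344 triplets in fibrillar genes, 39 to 66 in basement membrane genes, 37 to 87 in beaded genes, 32 to 113 in FACIT genes and 28 to 75 in the others. Exons of exactly 54 bases, which hold whole triplets only, numbered 21 to 33 in a fibrillar gene but 1 to 3 in a basement membrane gene. Exons are printed as examples, read 5′ to 3′ on the coding strand of mm9 with the GGN codons in frame in capitals. For the 3 main interstitial chains each is a middle one of the in-frame exons of 54 bases. The exon of *Col4a1* was picked because its GGN spacing is broken, so that the contrast was set by the choice. The *Col4a1* exon lies on the minus strand, the others on the plus strand.
Col1a1 coding exon 26, chr11:94805669-94805722: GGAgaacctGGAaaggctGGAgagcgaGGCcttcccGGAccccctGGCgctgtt
Col1a2 coding exon 27, chr6:4474117-4474170: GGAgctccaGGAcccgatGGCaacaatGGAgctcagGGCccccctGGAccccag
Col3a1 coding exon 26, chr1:45391606-45391659: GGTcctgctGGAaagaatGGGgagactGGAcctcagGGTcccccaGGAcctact
Col4a1 coding exon 9, chr8:11244486-11244569: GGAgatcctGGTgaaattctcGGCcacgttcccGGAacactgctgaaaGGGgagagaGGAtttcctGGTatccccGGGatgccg
The exons of *Col1a1*, *Col1a2* and *Col3a1* each hold 6 GGN codons at an even spacing. The 84 bases of *Col4a1* hold 8, at an uneven spacing, as in a helix with interruptions.

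The type IV genes also share their positions. Each of the 3 pairs lies head to head, transcribed away from a common start region. *Col4a1* (chr8:11198423-11312826, minus strand) and *Col4a2* (chr8:11312805-11449287, plus strand) overlap by 22 annotated bases, *Col4a4* (chr1:82447298-82583424, minus strand) and *Col4a3* (chr1:82583496-82718634, plus strand) are 71 bases apart, and *Col4a6* (chrX:137599946-137908619, minus strand) and *Col4a5* (chrX:137909928-138123778, plus strand) are 1308 bases apart on the X chromosome, which also carries *Firre*. The stretch shared by the first pair and the stretch between the second pair show how close the starts of these genes lie, both on the plus strand of mm9. The ratio of *Col4a1* to *Col4a2* is given below for every library.
Col4a1 and Col4a2, chr8:11312805-11312826: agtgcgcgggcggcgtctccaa
Col4a4 and Col4a3, chr1:82583425-82583495: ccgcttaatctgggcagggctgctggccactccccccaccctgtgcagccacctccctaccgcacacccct
Among the other members, *Col3a1* and *Col5a2* lie tail to tail 24614 bases apart on chromosome 1, and *Col9a1* and *Col19a1* tail to tail 9151 bases apart on the same chromosome.

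The libraries held 42986516 to 65454660 expected counts, with fewer in the female libraries (42986516 to 51481034) than in the male ones (51521907 to 65454660). *Firre*, listed as 6720401G13Rik, had 0 counts in all 6 KO libraries. In wild type it had 91, 90 and 129 counts in females and 287, 307 and 239 counts in males. Fibroblast genes summed to 7253 to 10004 CPM (counts divided by the scaled library size and given on the usual CPM scale) in every library, and no gene of that list was at 0 throughout. Macrophage genes (7 on the list) summed to 32.8 to 101 CPM in the female and 7.89 to 14.4 CPM in the male libraries, and epithelial genes (6 on the list) to 20.2 to 64.1 and 5.47 to 14.9 CPM. The libraries labelled female KO replicate 1 and female wild type replicate 3 stood apart from the rest. They were the 2 highest libraries for 6 of 9 cartilage genes, among them *Matn1* and *Lect1*. This also held for 4 of 9 skeletal muscle genes (*Myod1*, *Myog*, *Tnnt1* and *Mylpf*) and 4 of 6 neural genes, among them *Sox10* and *Nefl*. It held for no gene of the macrophage, epithelial, endothelial, bone and fibroblast lists. Results for collagen genes that rest on these libraries are given with and without them.

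Collagen genes took 1.22% to 1.80% of all expected counts of a library. The share was 1.52% ± 0.166 (SD, n = 3) in female wild type, 1.37% ± 0.133 in female KO, 1.69% ± 0.107 in male wild type and 1.65% ± 0.106 in male KO. KO and wild type differed by -0.09 on the log2 scale, averaged over the sexes, with a replicate SD of 0.124 (exact permutation test over libraries within sex, two-sided, p = 0.23). With 1 library left out this difference ran from -0.12 to -0.05. Female libraries were lower than male libraries by 0.22 on that scale (log2 difference -0.22, exact permutation test within genotype, p = 0.02). With a block on the replicate number the exact p was 0.0625. In bulk samples fewer collagen-producing cells and less collagen RNA per cell cannot be told apart. Within the collagen counts, fibrillar genes made up 57.5% in female wild type and 61.7% in male wild type, basement membrane genes 23.1% and 16.7%, and beaded genes 3.20% and 6.08%.

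A few genes carried most of this RNA. *Col1a1* alone supplied 19.3% of the collagen counts on average, and with *Col5a2*, *Col1a2*, *Col12a1*, *Col4a1*, *Col4a2* and *Col5a1* the share reached 81.4%. Levels of different genes were compared as CPM per kilobase of merged exon. On this scale 7 members averaged at least 100 over the 12 libraries, 16 at least 10 and 21 at least 1, while 7 were under 0.1. *Col6a5*, *Col6a6* and *Col13a1*, with 0 to 9 counts in any library, did not pass the filter on low counts, so that 40 of the 43 genes were tested among 15387 genes.

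**Figure D1:**
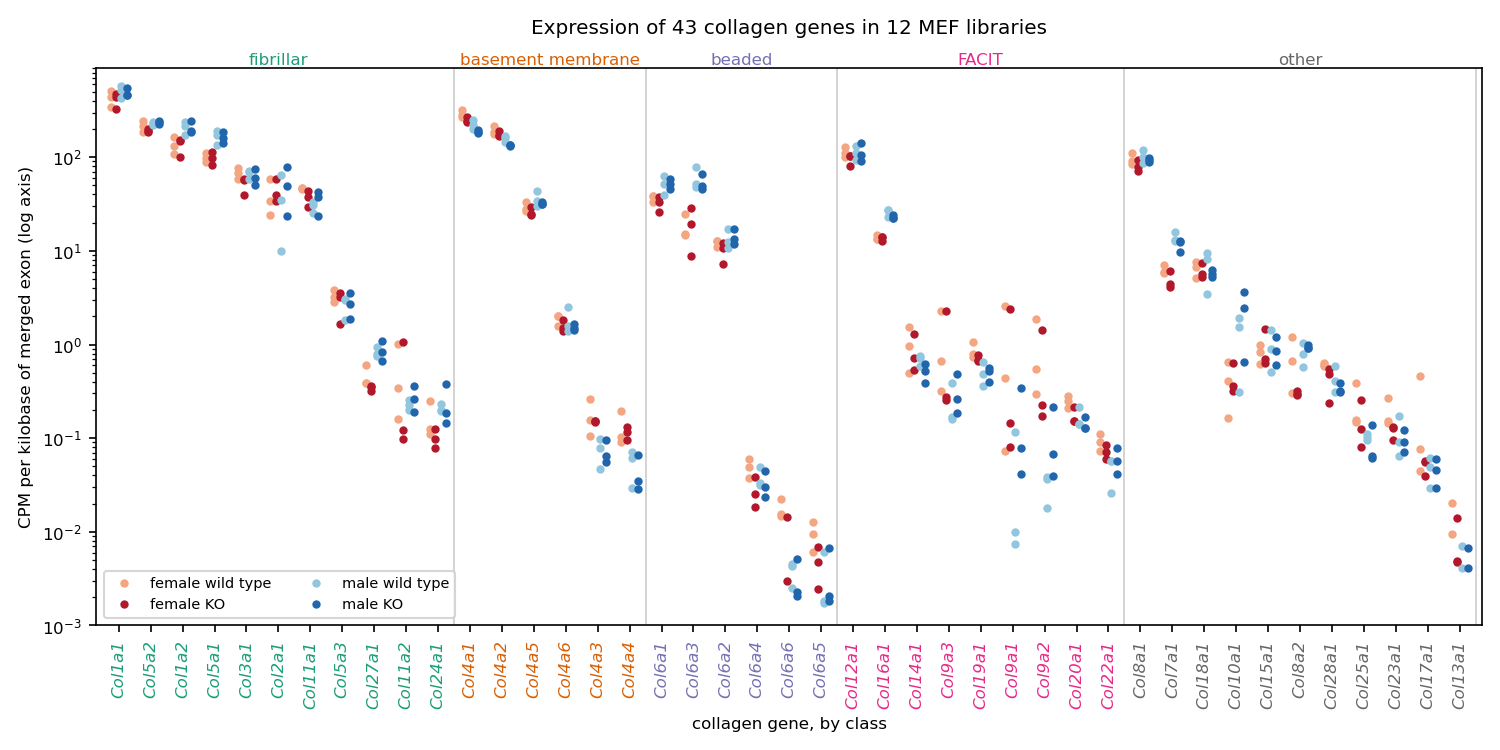
CPM per kilobase of merged exon (log axis) of 43 collagen genes, ordered by class and mean level, with 1 point per library in 4 groups of 3; libraries with 0 counts are not drawn. Fibrillar and type IV genes lead, with *Col1a1* at a mean of 461 and *Col4a1* at 238, and the cartilage genes of the FACIT class scatter most between libraries of 1 group.

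Among fibrillar genes *Col1a1*, a chain of type I collagen, was the highest. It was measured at 3365, 2886 and 2272 CPM in the female wild-type libraries, 2147, 2893 and 3074 CPM in female KO, 3770.4, 3440.0 and 2788 CPM in male wild type and 3024, 3606 and 3042 CPM in male KO, and the ranges of all 4 groups overlapped. *Col5a2*, a chain of the type V collagen that starts fibrils, had 2314, 2080.2 and 1782, then 1802, 1919 and 1844, then 2114, 2265 and 2163 and 2290.4, 2355 and 2158 CPM in the same order of groups. *Col1a2*, the partner of *Col1a1* in type I collagen, had 2013, 1616 and 1317 CPM in female wild type, 1235, 1795 and 1851 in female KO, 2642, 2889.7 and 2076 in male wild type and 2336, 2939 and 2269 in male KO, so that every male library exceeded every female one. *Col5a1* gave the same order, with 941, 831 and 747 CPM in female wild type and 699, 829 and 976 in female KO against 1451, 1628 and 1151 in male wild type and 1358, 1593 and 1194 in male KO. *Col3a1*, the type III chain of skin and vessels, did not separate the sexes. Its levels were 639, 487 and 574 CPM in female wild type, 333, 497 and 479 in female KO, 489, 586 and 592 in male wild type and 420.3, 503 and 629 in male KO. *Col11a1*, a type XI chain that also mixes with type V chains, had 455, 443 and 450.3 CPM in female wild type, above all libraries of the other groups (418, 286 and 359 in female KO, 295, 319.6 and 243 in male wild type and 367, 415 and 228 in male KO). *Col27a1*, a minor fibrillar chain of growing cartilage, was low in the female libraries (5.0, 5.04 and 7.87 CPM in wild type and 4.67, 4.61 and 4.20 in KO) and higher in all male libraries (10.2, 12.2 and 9.88 in wild type and 8.73, 10.9 and 14.1 in KO).

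The type IV genes spanned a wide range of levels, with the pair of *Col4a1* and *Col4a2* at the top. *Col4a1* had 2172, 1913 and 1851 CPM in female wild type, 1647, 1638 and 1826 in female KO, 1498, 1370.4 and 1718 in male wild type and 1235, 1268 and 1317 in male KO. In each sex all 3 KO libraries were below the 3 wild-type libraries. *Col4a2*, which joins *Col4a1* in the widespread type IV network, had 1429, 1228 and 1166 CPM in female wild type, 1122, 1134 and 1255 in female KO, 1056, 971 and 1126 in male wild type and 892, 891 and 866 in male KO. Its KO libraries lay below wild type in males, and overlapped with it in females. The X-linked genes were lower and far apart, with *Col4a5* at 164 to 289.6 CPM and *Col4a6* at 11.1 to 20.2 CPM over the 12 libraries. *Col4a3* and *Col4a4*, known from the filtration barrier of the kidney, stayed at 0.468 to 2.62 and 0.237 to 1.64 CPM. The replicate SD of log2 CPM was 0.114 for *Col4a1* and 0.104 for *Col4a2*, close to the median of 0.114 over all tested genes, whereas 36 of the 40 tested collagen genes lay above that median and 21 above the 90th percentile.

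Of the beaded genes, *Col6a3* varied most. It had 298, 182 and 178 CPM in female wild type and 106, 342 and 229 in female KO, against 624, 931 and 568 in male wild type and 543, 589 and 788 in male KO. *Col6a1*, which pairs with *Col6a2* and *Col6a3* in type VI collagen, had 171, 144 and 168 CPM in female wild type, 114, 164 and 147 in female KO, 225, 279.9 and 173 in male wild type and 203, 227 and 259.7 in male KO. For both genes no female library reached the lowest male library. *Col6a2* overlapped between the sexes, at 107, 90.6 and 106 and 60.6, 102 and 88.8 CPM in female and 104, 141 and 90.1 and 99.3, 112 and 144 CPM in male wild type and KO. *Col6a4*, *Col6a5* and *Col6a6* were at 0.508 CPM or less in every library.

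The FACIT class was led by *Col12a1*, which binds the surface of type I fibrils. It was measured at 1936, 1682 and 1521 CPM in female wild type, 1228, 1556 and 1580.0 in female KO, 1432, 1695 and 2000.0 in male wild type and 1378, 1607 and 2179.9 in male KO, without separation of any groups. *Col16a1* had the smallest replicate SD of all tested members, 0.096 on the log2 scale. Its levels were 89.8, 89.4 and 99.1 CPM in female wild type and 86.1, 95.7 and 95.6 in female KO, and 183, 183 and 156 in male wild type and 152, 164 and 150.3 in male KO, with a wide gap between the sexes. *Col14a1*, a relative of *Col12a1*, ranged from 2.73 to 10.8 CPM, and *Col19a1* from 2.50 to 7.39 CPM.

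Among the remaining genes *Col8a1*, which forms the network of a corneal membrane and is made by vascular cells, was the highest with 571, 461 and 436 CPM in female wild type, 401, 360.3 and 479 in female KO, 446, 508 and 603 in male wild type and 475, 501 and 456 in male KO. Its partner *Col8a2* was at 2.99, 1.37 and 5.42 CPM in female wild type, 1.34, 1.31 and 1.42 in female KO, 2.60, 4.68 and 3.54 in male wild type and 4.08, 4.43 and 4.14 in male KO. All 3 female KO libraries of *Col8a2* were close together, and the female wild-type libraries spread over them and above. *Col7a1*, the anchoring fibril of skin, separated the sexes with 60.4, 58.6 and 72.1 and 45.2, 42.4 and 62.4 CPM in female wild type and KO against 131, 161 and 132 and 98.2, 126 and 129 CPM in male wild type and KO. *Col18a1*, a basement membrane zone collagen from which endostatin is cut, ranged from 24.5 to 66.6 CPM and *Col15a1*, its relative, from 3.21 to 9.24 CPM.

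The question of what *Firre* deletion changed was put to all genes with edgeR's quasi-likelihood test. By the strict rule, with the thresholds of the study, a call needed an adjusted p below 0.01 together with a log2 fold change past 1 in either direction. A weaker rule asked for an adjusted p under 0.05 only. No collagen gene was called in female KO against wild-type MEFs, in male KO against wild-type MEFs, or averaged over the sexes, by either rule. Of all tested genes 0.0065% were called by the strict rule in each of the 3 comparisons, and 0.013%, 0.0065% and 0.0195% by the weaker rule. At an unadjusted p under 0.05, edgeR gave 5 of 40 collagen genes in females (7.55% of all genes), 3 in males (2.06%) and 4 averaged over the sexes (6.24%). All of these were lower in KO, as were 2.98%, 0.884% and 2.52% of all genes at that p. DESeq2 called 0 as well, with 4, 2 and 4 genes at an unadjusted p under 0.05. Nor was any collagen gene called for a KO effect that differed between females and males (0% of all genes by either rule), with 1 gene, *Col8a2*, at an unadjusted p under 0.05 (3.19% of all genes), where DESeq2 likewise gave 1.

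The fold changes were small and leaned to lower values in female KO. Of 40 tested genes 36 had a log2 fold change below 0 in females, with a median of -0.24, against 50.1% and a median near 0 over all genes. In males 24 of 40 were below 0, with a median of -0.05, against 52.3% of all genes. Below 0 in both sexes were 22 of 40 collagen genes (55%) and 29.3% of all genes, from comparisons that share no library. These counts moved with single libraries. Without female wild type replicate 3 there were 27 of 40 below 0 in females, without both libraries that stood apart 30 of 40, and in males the count ran from 17 without wild type replicate 2 to 28 without KO replicate 3. The male median was 0.07 without wild type replicate 2 and -0.15 without KO replicate 3. The female median ran from -0.35 to -0.19 with 1 library left out. Collagen genes share cells and libraries, so that their number is not a number of replicates.

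All 6 type IV genes were below 0 in both sexes, with a median log2 fold change of -0.20 in females and -0.26 in males. *Col4a1* was at -0.22 in females (SE 0.0834, adjusted p = 0.594) and -0.26 in males (SE 0.0834, adjusted p = 1). Averaged over the sexes it was at -0.24 (SE 0.059, unadjusted p = 0.0018, adjusted p = 0.589), a level 1.18-fold lower in KO. *Col4a2* averaged -0.19 (SE 0.0545, adjusted p = 0.717). With each library left out in turn the averaged value stayed between -0.28 and -0.19 for *Col4a1* and between -0.22 and -0.14 for *Col4a2*, and the adjusted p for *Col4a1* was 0.332 to 1. These chains were singled out after their values were seen, and neither passed the test. In the other classes the median was -0.21 for fibrillar, -0.23 for beaded, -0.27 for FACIT and -0.44 for the remaining genes in females, and 0.06, -0.06, 0.01 and -0.16 in males.

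**Figure D2:**
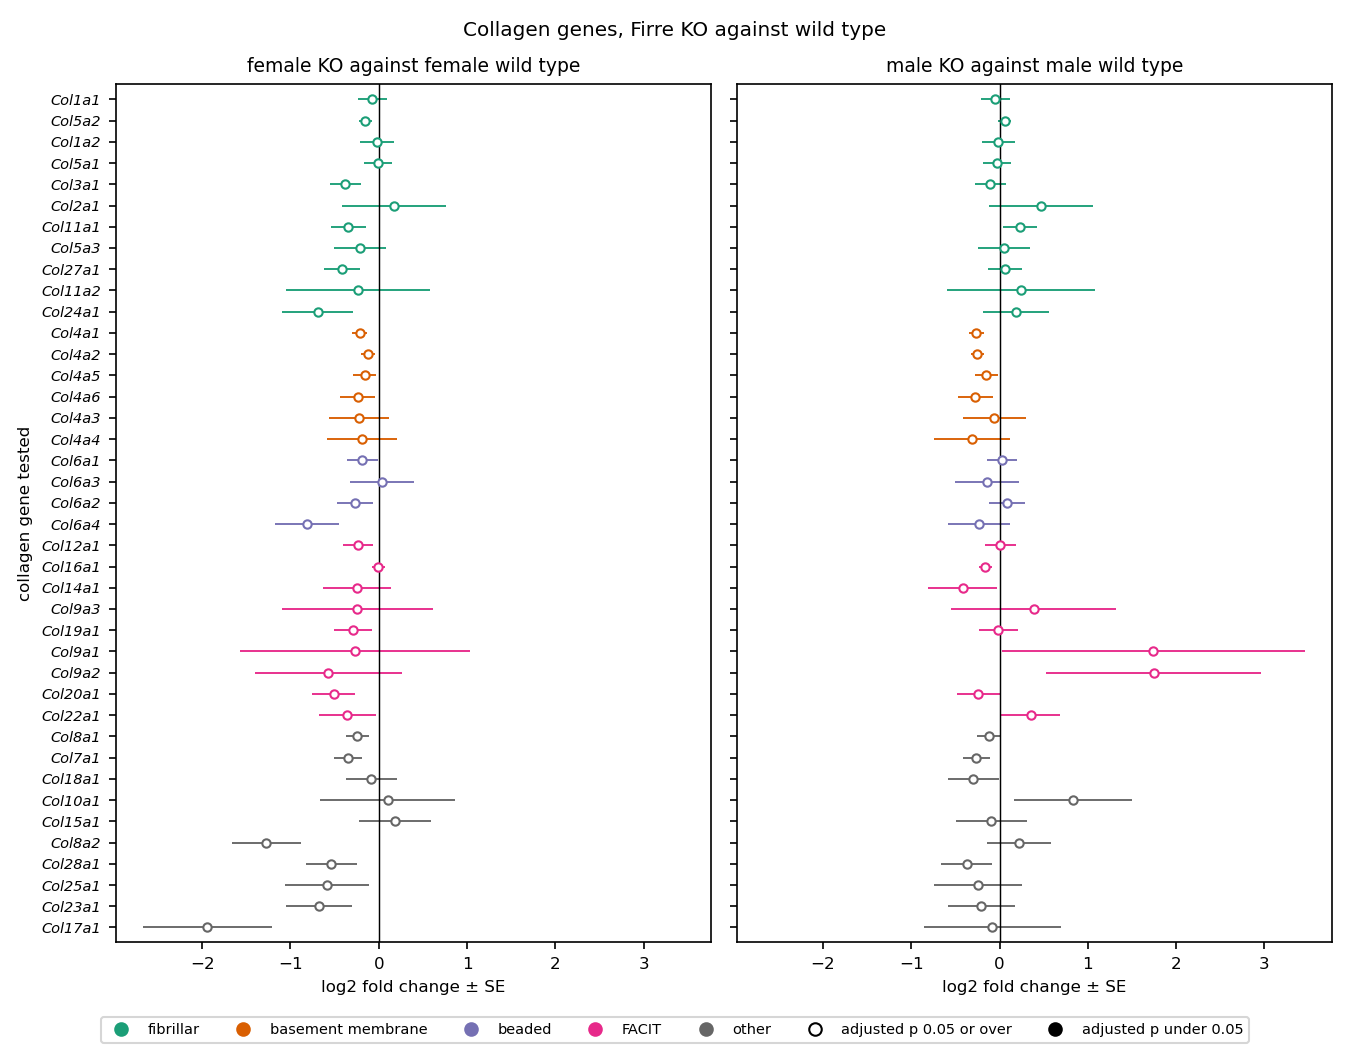
Log2 fold change ± SE (x axis) of the 40 tested collagen genes in *Firre* KO against wild type, in female libraries (left) and male libraries (right), n = 3 per group, coloured by class. No gene has an adjusted p under 0.05, and the 6 type IV genes lie left of 0 in both panels.

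The largest differences in female KO belonged to genes with few counts. *Col17a1*, a transmembrane collagen of epithelial attachment, had a log2 fold change of -1.94 (SE 0.731, edgeR adjusted p = 0.592), with 0.257, 0.442 and 2.66 CPM in female wild type and 0.226, 0.322 and 0.332 CPM in female KO. The difference rested on female wild type replicate 3, in which epithelial genes summed to 64.1 CPM against 20.2 to 34.4 CPM in the other female libraries, and it was -0.25 without that library. Whether those cells carried the *Col17a1* counts was not tested. *Col8a2* had a log2 fold change of -1.28 (SE 0.392, adjusted p = 0.542), or -0.69 without the same library. *Col6a4* followed at -0.81 (adjusted p = 0.656). The highest values in female KO, *Col15a1* at 0.18, *Col2a1* at 0.18 and *Col10a1* at 0.10, did not keep their sign. *Col15a1* was at -0.29 without KO replicate 2, *Col2a1* at -0.09 without KO replicate 1, and *Col10a1* at -0.27 without KO replicate 3. In males the highest were *Col9a2* at 1.75 (SE 1.21), *Col9a1* at 1.74 (SE 1.72) and *Col10a1* at 0.83 (SE 0.669), and the lowest were *Col14a1* at -0.42, *Col28a1* at -0.37 and *Col4a4* at -0.31, each with an adjusted p of 1 from edgeR. Single libraries moved these values. *Col9a1* was at 0.40 without KO replicate 1 and at 4.09 without wild type replicate 2, *Col9a2* at 0.74 and *Col10a1* at 0.31 without KO replicate 1, *Col10a1* at 0.38 without wild type replicate 3, and *Col14a1* at -0.25 without KO replicate 2. Without wild type replicate 1, *Col28a1* was at -0.086 and *Col4a4* at -0.051. These male fits, for every gene, ignored that same-numbered male libraries deviated together. For *Col10a1* each male KO library was above the wild-type library of its number. With a replicate block in the male libraries alone, added after seeing the data, *Col10a1* was at 0.86 (SE 0.11, edgeR adjusted p = 0.517).

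KO and wild-type libraries did not overlap for 5 of the 40 tested genes in females, *Col4a1*, *Col11a1*, *Col23a1*, *Col27a1* and *Col28a1*, all lower in KO (8.26% of all genes were lower without overlap, and 19.2% in either direction). The CPM of *Col6a6*, which was not tested, did not overlap either, from 0 to 5 counts in female KO and 5 to 9 in female wild type. In males 4 of 40 genes did not overlap, of which *Col4a1*, *Col4a2* and *Col7a1* were lower (2.52% of all genes) and *Col9a2* higher in KO (2.78%), against 5.3% in either direction. *Col4a1* was the gene common to both.

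Female and male cultures differed for many more genes, collagens included. In wild type 3 of 40 collagen genes passed the strict rule, against 4.54% of all genes, and 16 passed an adjusted p under 0.05 (9 higher and 7 lower in females), against 38.7% of all genes (18.9% higher and 19.8% lower). In KO the numbers were 4 of 40 by the strict rule, against 3.89%, and 15 by the weaker rule (4 higher and 11 lower), also against 38.7% (18.9% and 19.7%). By the weaker rule the share of collagen genes was thus near that of all genes. Both comparisons called 11 collagen genes in the same direction, 68.8% of those called in wild type and 73.3% of those called in KO, against 78% and 78.1% over all genes. The 4 that rose in females in both were *Col4a1*, *Col4a2*, *Col4a3* and *Col4a4*. The 7 that fell were *Col1a2*, *Col5a1*, *Col6a1*, *Col6a3*, *Col7a1*, *Col16a1* and *Col27a1*.

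The smallest adjusted p of these belonged to *Col16a1*, 1.87-fold lower in female than in male wild-type MEFs (log2 fold change -0.90, SE 0.0721, edgeR adjusted p = 1.6e-05) and 1.68-fold lower in KO (-0.75, adjusted p = 3.94e-05). *Col7a1* was 2.22-fold lower in wild type (-1.15, adjusted p = 0.000302) and 2.36-fold lower in KO (-1.24, adjusted p = 0.000204). *Col6a3* was 3.22-fold lower in wild type (-1.69, SE 0.371, adjusted p = 0.00475) and 2.84-fold lower in KO (-1.50, adjusted p = 0.00838). *Col8a2* passed the strict rule in KO, 3.11-fold lower in females (-1.64, SE 0.39, adjusted p = 0.00708). Leaving out any 1 library gave it an adjusted p of 0.0136 to 0.0262, which met the weaker rule and not the strict one, and gave *Col6a3* in KO 0.00378 to 0.0285. In wild type *Col8a2* was at -0.14 (adjusted p = 0.793). *Col5a1* fell by 0.75 on the log2 scale in wild type (adjusted p = 0.00347) and by 0.73 in KO (adjusted p = 0.00403), and *Col27a1* by 0.85 (adjusted p = 0.00661) and by 1.32 (adjusted p = 0.000624). *Col1a2* fell by 0.62 (adjusted p = 0.0245) and by 0.63 (adjusted p = 0.0229), while *Col1a1*, its partner, was at -0.23 and -0.25 and was not called (adjusted p = 0.299 and 0.251). *Col5a2*, likewise the partner of *Col5a1*, was at -0.08 in wild type (adjusted p = 0.428) and was called only in KO, at -0.29 (adjusted p = 0.0128).

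In the opposite direction the type IV genes of the autosomes rose together. *Col4a1* was 1.29-fold higher in female wild type (log2 fold change 0.37, SE 0.0834, edgeR adjusted p = 0.00522) and 1.34-fold higher in female KO (0.42, adjusted p = 0.00278). *Col4a2* was higher by 0.28 (adjusted p = 0.0154) and 0.41 (adjusted p = 0.00213). *Col4a3*, at 1.23 and 1.07, and *Col4a4*, at 1.29 and 1.41, passed as well, from levels of at most 2.62 CPM. The X-linked *Col4a5* was at -0.29 and -0.30 (adjusted p = 0.0937 and 0.0834) and *Col4a6* at 0.02 and 0.05, and neither was called. *Col19a1*, a minor FACIT gene, was higher by 0.79 in wild type (adjusted p = 0.0146, but 0.063 without female replicate 1 and 0.0531 without male replicate 1) and was at 0.51 in KO (adjusted p = 0.087), and *Col11a1* was higher by 0.65 in wild type (adjusted p = 0.0221) and at 0.07 in KO (adjusted p = 0.794). The call of *Col11a1* was lost with any library left out but male replicate 2 (adjusted p of up to 0.0708). *Col9a2* passed the strict rule in wild type (4.82, SE 1.11, adjusted p = 0.00585), and without female wild type replicate 3 it was at 3.71 with an adjusted p of 0.0237.

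**Figure D3:**
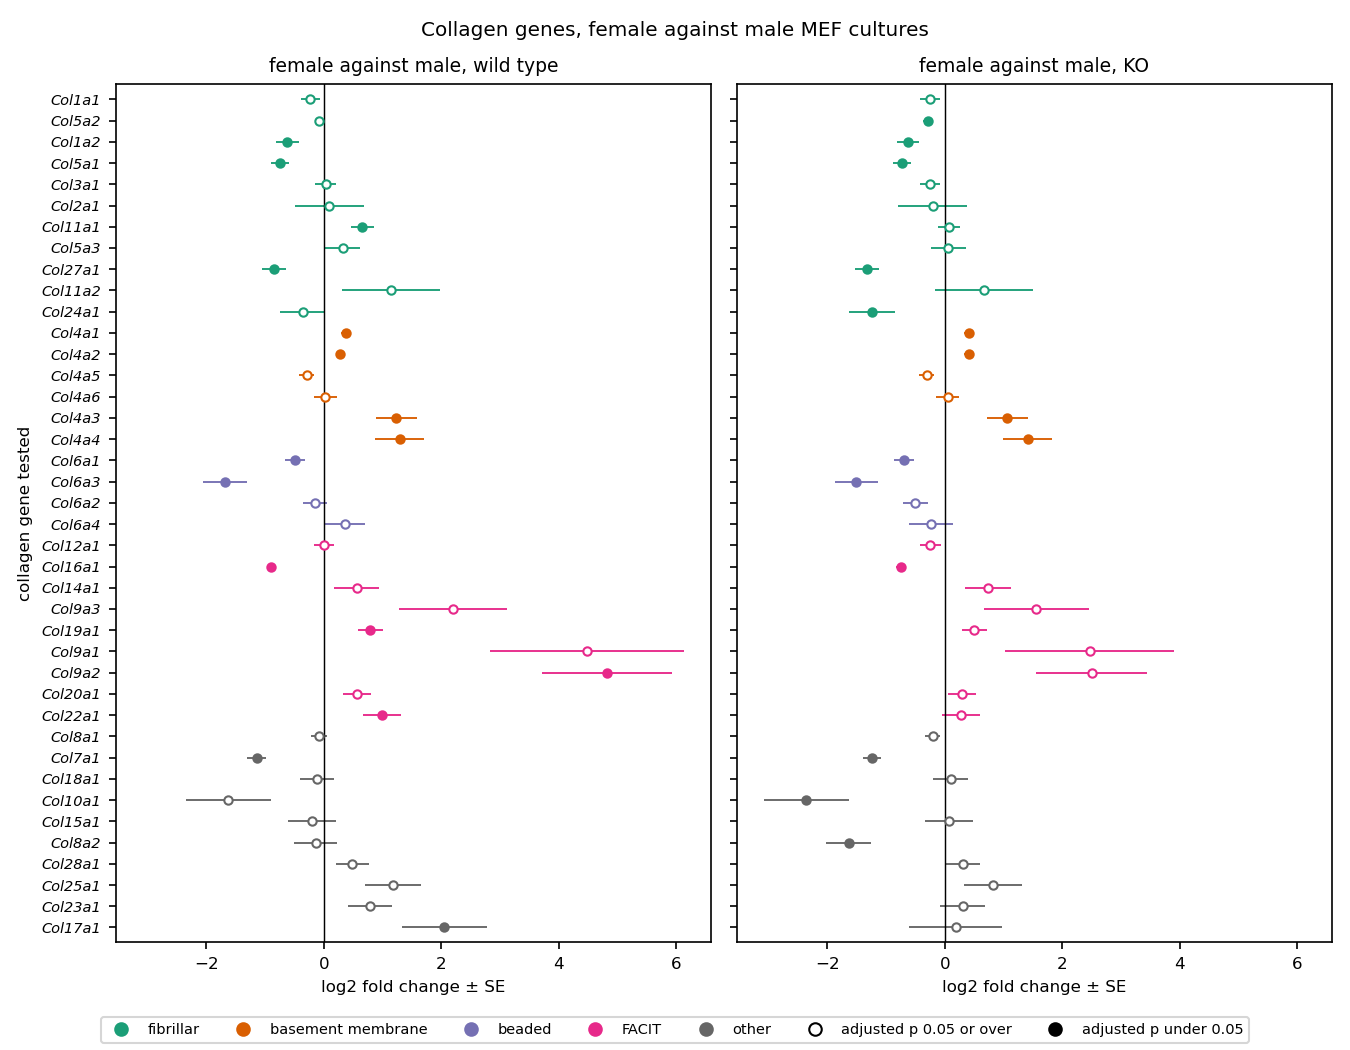
Log2 fold change ± SE (x axis) of the 40 tested collagen genes in female against male MEFs, in wild type (left) and KO (right), n = 3 per group; filled points have an adjusted p under 0.05 (16 genes left, 15 right). *Col4a1* to *Col4a4* lie right of 0 and *Col16a1*, *Col7a1* and *Col6a3* left of 0 in both panels.

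These counts moved with the libraries left out. Such fits hold fewer libraries, which can lower the number of calls by itself, and the share of all genes called in them is not given. By the strict rule 1 collagen gene passed in wild type without female replicate 2, male replicate 1 or male replicate 2, and 2 passed in KO without female replicate 1, female replicate 3, male replicate 1 or male replicate 2. By the weaker rule the count in wild type fell from 16 to 9 without female replicate 3 and to 10 without male replicate 2. It was 13 to 15 without any other of the libraries compared. Of the genes called by this rule, 7 of 16 in wild type and 10 of 15 in KO kept their call with each of the 6 libraries left out in turn. *Col16a1*, *Col7a1*, *Col5a1*, *Col6a3*, *Col27a1* and *Col4a1* did so in both. *Col1a2* lost it without 4 of 6 libraries in wild type (-0.79 to -0.48, adjusted p of up to 0.093) and 2 in KO, *Col4a2* without 2 in wild type (0.19 to 0.34, adjusted p of up to 0.0615), and *Col6a1* without 5 in wild type (-0.65 to -0.30, adjusted p of up to 0.173). *Col4a3* lost it without 2 in wild type and 5 in KO, and *Col4a4* without 2 and 3, with both lost in wild type without female replicate 3 (0.81 and 0.85). *Col22a1*, at 0.99 in wild type (edgeR adjusted p = 0.0345), and *Col24a1*, at -1.24 in KO (edgeR adjusted p = 0.0284), each lost it without 3. With both libraries that stood apart left out the count by the weaker rule was 9 in wild type and 13 in KO. The female libraries also held more macrophage and epithelial RNA than the male ones, as given above. Endothelial genes, most of whose sum came from *Kdr*, summed to 25.0 to 35.4 CPM in them against 17.1 to 23.3 CPM. The fibroblast sums, mostly *Vim* and *Fbln2*, were lower (7253 to 8564 against 8606 to 10004 CPM). In wild type *Fbln2* averaged 1523 CPM in females and 3223 in males, and *Vim* 5191 and 5183. By the weaker rule 5 of 10 fibroblast genes were lower in females in each genotype, against 19.8% and 19.7% of all genes. In wild type 0 were higher and in KO 1, against 18.9%. Bone genes summed to 1.26 to 2.94 against 2.25 to 18.1 CPM, and skeletal muscle genes, most of whose sum came from *Acta1* and *Des*, to 84.1 to 136 against 78.0 to 146 CPM. By the weaker rule 3 of 6 tested skeletal muscle genes were higher in females in wild type and 4 of 6 in KO, with none lower. Of all genes 18.9% were higher in each genotype. *Myog* was higher by 4.31 and 4.47 on the log2 scale (edgeR adjusted p = 0.0068 and 0.00645) and *Mylpf* by 3.15 and 3.41 (adjusted p = 0.00528 and 0.00381). Among neural genes, *Nefl* was higher by 3.20 and 2.70 (adjusted p = 0.0023 and 0.00571) and *Sox10* by 1.85 and 2.26 (adjusted p = 0.00544 and 0.00215), *Sox2* was called in KO only (1.12 and 1.81, adjusted p = 0.0914 and 0.0164), and *Tubb3* was not called, at -0.25 and -0.21 (adjusted p = 0.107 and 0.16). The differences of *Myog*, *Mylpf*, *Nefl* and *Sox10*, which were highest in the female libraries that stood apart, are given with all 12 libraries only. No gene of these lists was at 0 in all 12 libraries. The part of these cells, of depth, and of the embryo or line in the differences between the sexes was not tested.

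Pairs of chains were then set against each other, as the ratio of their CPM per kilobase. The chains of a pair join in 1 molecule or can do so, except for *Col3a1* and *Col1a1*, whose collagens share fibrils. *Col1a1* to *Col1a2* was 3.09, 3.31 and 3.19 in female wild type, 3.22, 2.98 and 3.07 in female KO, 2.64, 2.20 and 2.48 in male wild type and 2.39, 2.27 and 2.48 in male KO, and no female library overlapped with a male one. The ratio was 1.30-fold higher in females (log2 difference 0.38, replicate SD 0.0824, exact permutation test over libraries within genotype, p = 0.005, the smallest that 400 relabellings can give, adjusted p = 0.01 over 8 ratios). The level of this ratio depends on the length used, since the annotation gives *Col1a2* 12145 and *Col1a1* 6563 merged exon bases. From counts alone it was 1.19 to 1.79 over the 12 libraries, and per kilobase of coding sequence it averaged 1.42. The difference between groups does not depend on length.

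*Col4a1* to *Col4a2* was the steadiest ratio, at 1.48, 1.51 and 1.54 in female wild type, 1.42, 1.40 and 1.41 in female KO, 1.38, 1.37 and 1.48 in male wild type and 1.34, 1.38 and 1.48 in male KO, with a replicate SD of 0.0499 on the log2 scale. Females and males differed by 0.06 (exact permutation test, adjusted p = 0.131). *Col5a1* to *Col5a2* was 0.459, 0.451 and 0.473 in female wild type and 0.438, 0.488 and 0.598 in female KO, below 0.775, 0.812 and 0.601 in male wild type and 0.670, 0.764 and 0.625 in male KO. It was 1.46-fold lower in females (log2 difference -0.55, exact permutation test, p = 0.005, adjusted p = 0.01). *Col11a1* to *Col5a1*, the chains that can stand in for each other in mixed fibrils, was 2.17-fold higher in females (log2 difference 1.12, exact permutation test, p = 0.005, adjusted p = 0.01), at 0.303 to 0.530 in the female and 0.168 to 0.237 in the male libraries.

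In type VI collagen, *Col6a3* to *Col6a1* was 0.641, 0.464 and 0.389 in female wild type and 0.339, 0.766 and 0.572 in female KO, against 1.02, 1.22 and 1.21 in male wild type and 0.984, 0.955 and 1.11 in male KO. It was 2.12-fold lower in females (log2 difference -1.09, exact permutation test, p = 0.005, adjusted p = 0.01). *Col6a1* to *Col6a2* was lower in females by 0.26 on the log2 scale (log2 difference -0.26, exact permutation test, p = 0.01, adjusted p = 0.016), at 3.02 to 3.58 in the female and 3.43 to 4.10 in the male libraries, which overlapped in KO. The level of this ratio also depends on the length used, since *Col6a2* has 8326 and *Col6a1* 4393 merged exon bases. From counts alone it averaged 1.82, and per kilobase of coding sequence 1.84. *Col8a1* to *Col8a2* was at 0.83 (p = 0.04, adjusted p = 0.0533, exact permutation test) and *Col3a1* to *Col1a1* at 0.14 (exact permutation test, adjusted p = 0.455). Between KO and wild type none of the 8 ratios differed by the test. The log2 differences ran from -0.20 for *Col3a1* to *Col1a1* to 0.22 for *Col8a1* to *Col8a2*, with p = 0.14 to 0.905 before and 0.897 to 0.905 after adjustment (exact permutation test within sex). With 3 libraries against 3 in 1 sex alone an exact permutation test could not go below p = 0.10.

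**Figure D4:**
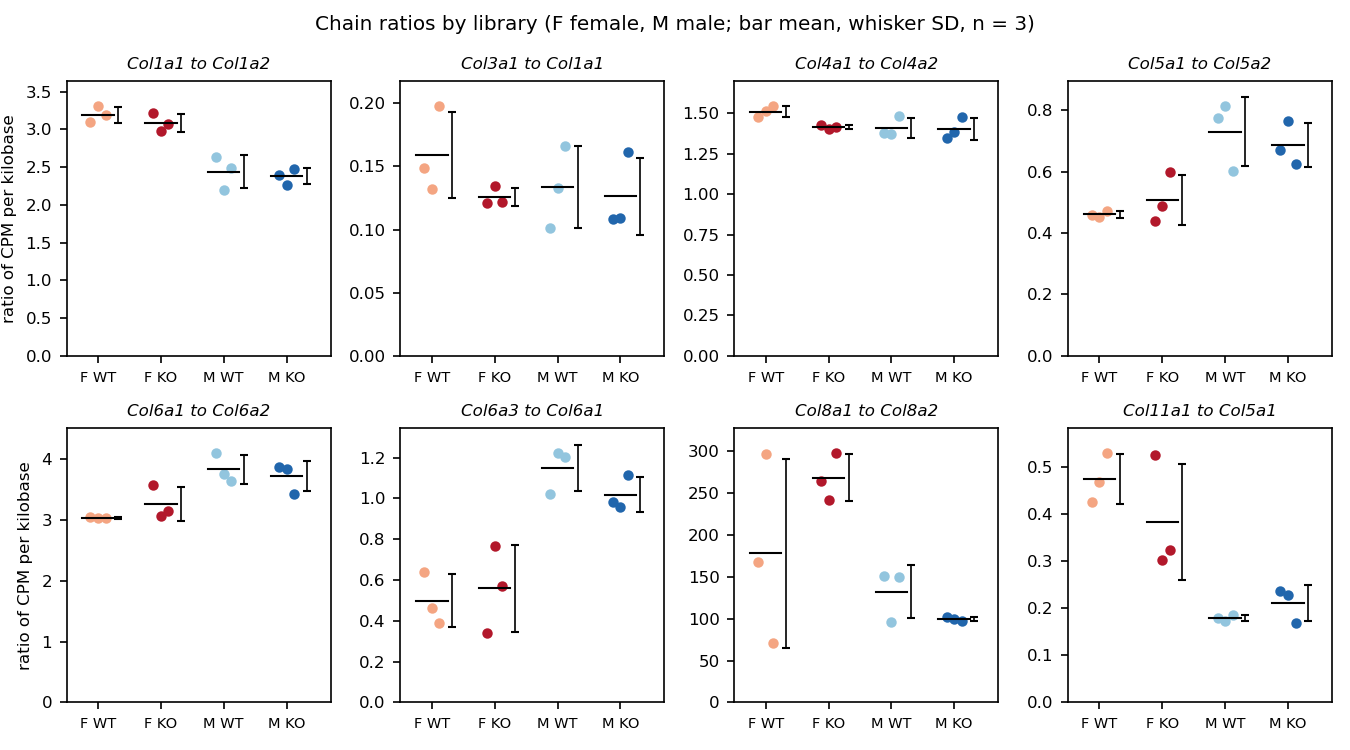
Ratio of CPM per kilobase (y axis, from 0) of 8 pairs of collagen chains in each library, by sex and genotype (F female, M male, WT wild type), with the mean as a bar and the SD as a whisker, n = 3. *Col1a1* to *Col1a2* lies between 2.98 and 3.31 in the 6 female and between 2.20 and 2.64 in the 6 male libraries.

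Of the 6 collagens of cartilage, *Col9a1*, *Col9a2*, *Col9a3* and *Col11a2* were highest in the same female libraries, 1 in wild type and 1 in KO. *Col9a1*, a chain of the FACIT that coats type II fibrils, had 0.374, 2.25 and 13.2 CPM in female wild type, 12.1, 0.407 and 0.752 in female KO, 0.0506, 0.597 and 0.0375 in male wild type and 1.76, 0.401 and 0.210 in male KO. *Col9a2* was at 0.912, 1.68 and 5.78 and 4.44, 0.708 and 0.531 CPM in female wild type and KO and at 0.118, 0.113 and 0.0562 and 0.660, 0.123 and 0.210 CPM in male wild type and KO. *Col9a3* had 1.23, 2.60 and 8.82 CPM in female wild type, 8.72, 0.986 and 1.05 in female KO, 0.651, 1.48 and 0.613 in male wild type and 1.87, 1.02 and 0.718 in male KO, and *Col11a2*, a type XI chain, ranged from 0.664 to 7.34 CPM. For all 4 genes female KO replicate 1 and female wild type replicate 3 were the highest libraries. The same libraries had 1.34 and 2.51 CPM of *Matn1*, a cartilage matrix gene that was at 0.155 CPM or less elsewhere, 3.44 and 1.94 CPM of *Lect1* (0.457 or less elsewhere) and 7.54 and 7.59 CPM of *Hapln1* (2.57 or less elsewhere). The whole list of 9 cartilage genes summed to 33.2 and 35.4 CPM in them and to 16.5 to 36.7 CPM in the other libraries. *Acan*, at 9.19 and 11.7 CPM, was highest in them among the female libraries, while male libraries reached 22.0 CPM. *Sox9* did not follow.

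*Col2a1*, the main cartilage collagen, had its highest female levels in the same libraries, while male libraries reached 471 CPM. It had 206, 146 and 351 CPM in female wild type, 354, 204 and 236 in female KO, 208, 391 and 59.5 in male wild type and 300.3, 471 and 144 in male KO, with the highest and the lowest library both male. *Col10a1*, which marks enlarged cartilage cells before bone forms, had 0.514, 2.01 and 1.28 CPM in female wild type, 0.996, 1.12 and 1.99 in female KO, 5.97, 4.84 and 0.975 in male wild type and 11.3, 7.71 and 2.02 in male KO. It was lower in female than in male KO libraries by 2.36 on the log2 scale (log2 fold change -2.36, SE 0.729, edgeR adjusted p = 0.0249, lost with 4 of the 6 libraries left out in turn and with the replicate block, at up to 0.0909) and was at -1.63 in wild type (adjusted p = 0.0987). In male KO replicate 2 the bone gene *Ibsp* was at 12.6 CPM, against 1.50 CPM or less in all others. Among all tested genes the replicate SD of *Col9a1* stood at percentile 99.95, that of *Col9a3* at 99.87, *Col11a2* at 99.84, *Col10a1* at 99.79, *Col2a1* at 99.77 and *Col9a2* at 99.75.

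**Figure D5:**
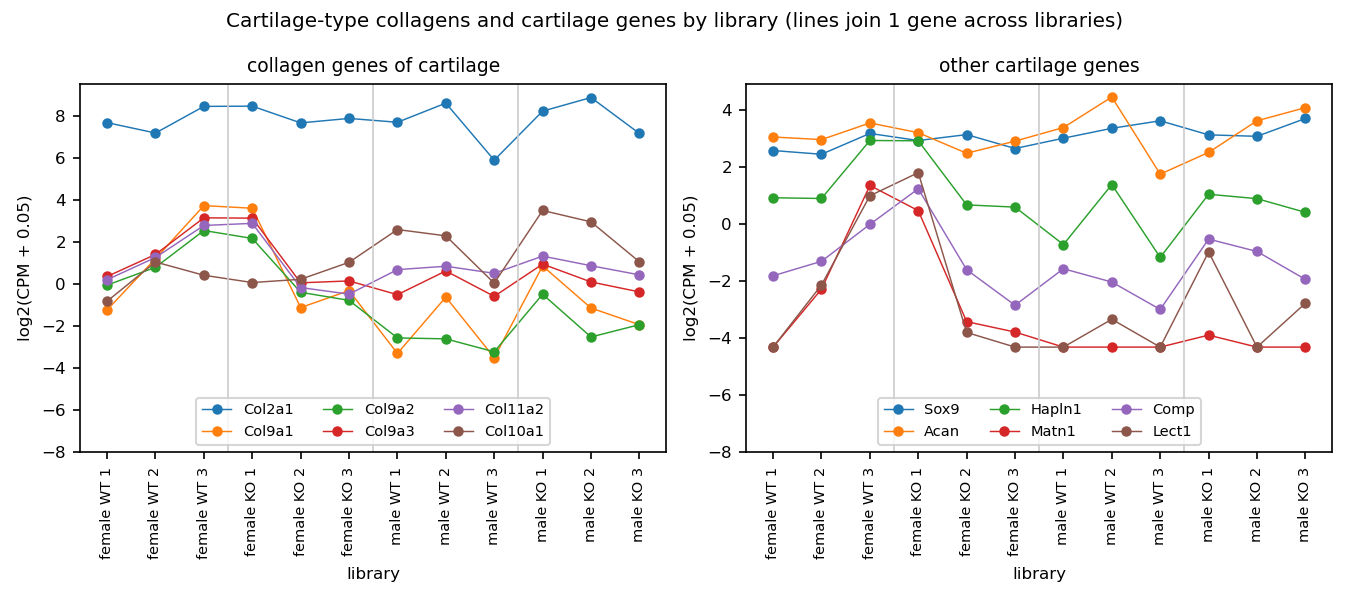
Log2(CPM + 0.05) of 6 collagen genes of cartilage (left) and 6 other cartilage genes (right) in the 12 libraries, lines joining the values of 1 gene. *Col9a1*, *Col9a2*, *Col9a3*, *Col11a2*, *Matn1* and *Lect1* peak in female wild type replicate 3 and female KO replicate 1. *Col2a1* and *Acan* are highest there among the female libraries only.

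Genes that make or bind collagen were taken from lists. Of 30 tested genes for synthesis and processing of collagen none was called in KO against wild type in either sex by edgeR, with log2 fold changes of -0.35 to 0.26 in females and -0.29 to 0.14 in males. Between the sexes 1 was higher and 12 were lower in female wild type at an adjusted p under 0.05, where 18.9% of all genes were higher and 19.8% lower. In KO 1 was higher and 11 were lower (18.9% and 19.7% of all genes). *P4ha1*, a subunit of the enzyme that hydroxylates proline, fell by 0.55 in wild type (SE 0.0751, adjusted p = 0.000305) and by 0.60 in KO (adjusted p = 0.000196). *Serpinh1*, the chaperone of the collagen helix, fell by 0.26 in both (adjusted p = 0.0146 and 0.0142), *Bmp1*, which cuts the end of procollagen, by 0.50 and 0.47, and *Loxl3*, a crosslinking enzyme, by 2.01 and 1.71. *Leprel1*, a proline 3-hydroxylase, was the gene that rose, by 0.94 and 0.91. Of 8 collagen receptor genes none was called in KO against wild type, 2 were higher and 4 lower in female than male wild type, and 1 was higher and 5 lower in KO, where 38.7% of all genes were called in either direction in each comparison. *Ddr2*, a receptor for fibrillar collagen, fell by 0.60 (adjusted p = 0.000146) and by 0.54 (adjusted p = 0.000263), and *Ddr1*, a related receptor of epithelial cells, rose by 0.33 (adjusted p = 0.00217) and 0.28 (adjusted p = 0.00629).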

How the data were processed

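RNA-seq libraries of wild-type and *Firre* KO MEFs (4 groups of 3) were analysed. The authors prepared them with Illumina TruSeq version 2, which does not mark strand, used Bowtie 2 for alignment and RSEM 1.2.29 for quantification, and deposited unscaled expected counts for each gene. Their DESeq2 1.4.5 comparisons, Hi-C maps and ChIP-seq were not used here. Expected counts depend on how reads shared between genes are split; 5 collagen genes (*Col1a2*, *Col5a1*, *Col4a4*, *Col9a3* and *Col22a1*) had counts that were not whole. *Col9a3* shares 234 exon bases with *Tcfl5* on the opposite strand.

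Counts were rounded and tested with edgeR 4.0.16 (R 4.3.3, quasi-likelihood, TMM, filterByExpr, Benjamini-Hochberg adjustment over 15387 genes). Each of the 4 groups had its own mean in the fit, with 8 residual degrees of freedom and a common biological coefficient of variation of 0.114. CPM refer to TMM-scaled library sizes. Depth was 42986516 to 65454660 counts, and it limits the precision of genes under 1 CPM most. Gene lengths and sequences came from mm9 with its GENCODE annotation. Chain ratios and the collagen share were tested with exact permutation tests over libraries. The method was tested on simulated data.

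Each class was described by its 3 highest members, members past a threshold (at most 8 per comparison, by adjusted p), the 3 largest differences in each direction between KO and wild type, and the chains of the 8 ratios. *Col4a1* and *Col4a2* in KO, and called members past the 8 in the comparisons of the sexes, were added after their values were seen. Members, classes and lists were chosen with earlier results of these data known. *Mia3*, *Map2* and *Runx2* were not matched to 1 row each and were left out of their lists, and some neural genes are not reported here. Alternatives were DESeq2 1.42.0, other scalings and filters, an adjusted p under 0.05 alone, fits of the 6 libraries compared, a replicate block, and leaving out each library.

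Same-numbered male libraries deviated together over all genes (correlations of 0.205, 0.365 and 0.459 for KO with wild type), so that the numbers pair them. The labels name no shared source. Same-numbered female libraries did not (-0.241, -0.132 and -0.175). Replicates of 1 group differed by more than sampling noise in all 12 pairs (chi-square per degree of freedom 7.55 to 45.1).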

Additional observations from a re-analysis of the deposited data

How the results depend on the processing

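The 0 calls of collagen genes between KO and wild type held under every alternative run, among them DESeq2, DESeq2's size factors, library size alone, scaling without collagen genes, both count filters, the 6 libraries compared, the replicate block, and each library left out (0 to 0 calls). A block on the replicate number of the male libraries alone, added after seeing the data, also gave 0 calls there. In that edgeR fit 6 of 39 tested collagen genes had an unadjusted p under 0.05. The share of all genes at that p is not given. Between the sexes, an adjusted p under 0.05 without a fold limit gave 16 genes in wild type and 15 in KO in place of 3 and 4. With 1 library left out the strict counts ran from 1 to 4 in wild type and from 2 to 4 in KO. DESeq2 called 4 in each, and the replicate block 3 in each. Leaving out both female libraries that stood apart, an alternative added after seeing the data, gave 4 in wild type and 3 in KO.

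Of the fold changes named in the text, 5 values in female KO against wild type turned negative when 1 library was left out. *Col15a1* ranged from -0.29 to 0.40 over the libraries left out, *Col2a1* from -0.091 (without KO replicate 1; -0.073 without wild type replicate 2) to 0.59, and *Col10a1* from -0.27 (also -0.26) to 0.58. Of 31 calls between the sexes at an adjusted p under 0.05, 14 were lost without some single library (46 values), and 19 values were past the threshold no longer under other alternatives, among them *Col6a1* in wild type under DESeq2 (-0.48), library size alone (-0.46) and the replicate block (-0.47). The replicate block also ended the calls of *Col17a1* in wild type (1.60, against 2.05 without the block and 0.36 without female replicate 3) and *Col10a1* in KO (-2.07), and no other call of a named gene. The remaining 420 values under these alternatives kept sign and call.

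Chain ratios are log2 differences. Between KO and wild type, the range with 1 library left out crossed 0 for *Col5a1* to *Col5a2* (-0.043 to 0.074, reversed values -0.043, -0.039 and -0.017), *Col6a1* to *Col6a2* (-0.0056 to 0.057), *Col6a3* to *Col6a1* (-0.16 to 0.13, reversed values 0.13 and 0.071), *Col8a1* to *Col8a2* (-0.057 to 0.46) and *Col11a1* to *Col5a1* (-0.19 to 0.018, reversed values 0.018 and 0.013). Over the libraries left out *Col3a1* to *Col1a1* kept its sign, at -0.29 to -0.11 (0.047 to 0.23 between females and males). Within 1 sex *Col8a1* to *Col8a2* was at 0.81 in females and -0.38 in males, and *Col11a1* to *Col5a1* at -0.35 and 0.22. Between females and males, *Col8a1* to *Col8a2* was at 1.42 in KO and 0.23 in wild type, and *Col11a1* to *Col5a1* at 0.83 and 1.40. With 1 library left out, *Col8a1* to *Col8a2* ran from 0.59 to 1.10 and *Col4a1* to *Col4a2* from 0.042 to 0.076, and each passed an adjusted p of 0.05 at its highest value, without female wild type replicate 3 and without male KO replicate 3. The lower collagen share of females (-0.22) had an exact p of 0.0625 with the replicate block. The cause of these shifts was not tested.

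Genes that averaged under 1 CPM over the 12 libraries, such as *Col4a4* and *Col6a4*, rest on few counts.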
